A study of Mus musculus with 6 samples.

Results

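The genes described here encode the band 4.1 proteins and the ERM linkers, 10 genes of 20405 measured in M0505 and STOSE cells: *Epb4.1*, *Epb4.1l1*, *Epb4.1l2*, *Epb4.1l3*, *Epb4.1l4a*, *Epb4.1l4b*, *Epb4.1l5*, *Ezr*, *Msn* and *Nf2*. M0505 is an early passage line of FVB/N mouse ovarian surface epithelial cells, and STOSE is the spontaneously transformed line that arose from it during prolonged passage in the same medium. RNA from 3 cultures of each line, which the labels call biological replicates, was hybridized to Affymetrix Mouse Gene ST arrays. Each line is a single line, so the arrays repeat cultures and not the transformation. The genes were found by their symbols in the deposited table, which uses the older Epb4.1 spelling, and each had 1 probe set. The group was drawn around *Epb4.1l4a*, which was chosen by its difference between the lines, so its values are given as a description with no test.

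Band 4.1 and ERM proteins share a FERM domain, a fold that binds the cytoplasmic tails of membrane proteins and membrane lipids. The first known band 4.1 protein, that of the red cell, fastens the spectrin and actin skeleton to the membrane. Ezrin and moesin bridge membrane proteins and cortical actin in microvilli and at the cell edge, while merlin, the product of *Nf2*, is a tumor suppressor that acts at cell contacts and upstream of the Hippo kinases. In a surface epithelium, such linkers take part in holding cell shape, apical surface and junctions.

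Values are log2 scaled after robust multi-array average (RMA) normalization, and a level can be compared between arrays but not between genes, whose probes differ. As a gauge of background, values of the 1134 olfactory receptor probe sets were used, since such receptors are not thought to be made in this epithelium, and their 95th percentile was 4.74. A gene was called changed when limma gave an adjusted p under 0.05 over all 20405 genes and the fold change was at least 2. Array medians over genes were 6.46 to 6.49 in M0505 cells and 6.25 to 6.29 in STOSE cells. Over all genes the log2 fold change had a median of 0.08. Centring each array on its own median therefore raised every log2 fold change by 0.20, to a median of 0.28, and a difference smaller than this is given below with its centred value. With this centring the share of calls that were higher in STOSE cells rose from 39.2% to 55.5%.

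Among the 10 genes, STOSE cells had more *Epb4.1l4a*, by a log2 difference of 6.02, more *Epb4.1l1*, by 1.03, and less *Epb4.1l5*, at −1.96. Leaving aside *Epb4.1l4a*, 2 of 9 genes were called, 1 in each direction, where 12.5% of all genes were called, 4.9% higher and 7.59% lower. By the adjusted p alone 6 of the 9 passed, 3 higher and 3 lower, beside 56.5% of all genes. This split depended on the normalization, since with centred arrays 6 of the 9 passed as 5 higher and 1 lower. The arrays of the lines did not overlap for 8 of the 9, beside 64.6% of all genes. The median log2 fold change of the 9 was 0.03 and their median size was 0.27, against 0.25 for all genes. Thus outside *Epb4.1l4a*, *Epb4.1l5* and *Epb4.1l1* the differences were under 2-fold, with log2 fold changes between −0.27 and 0.78. The largest of these, that of *Epb4.1* at 0.78, was still larger in size than the difference of 82.1% of all genes.

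**Figure D1:**
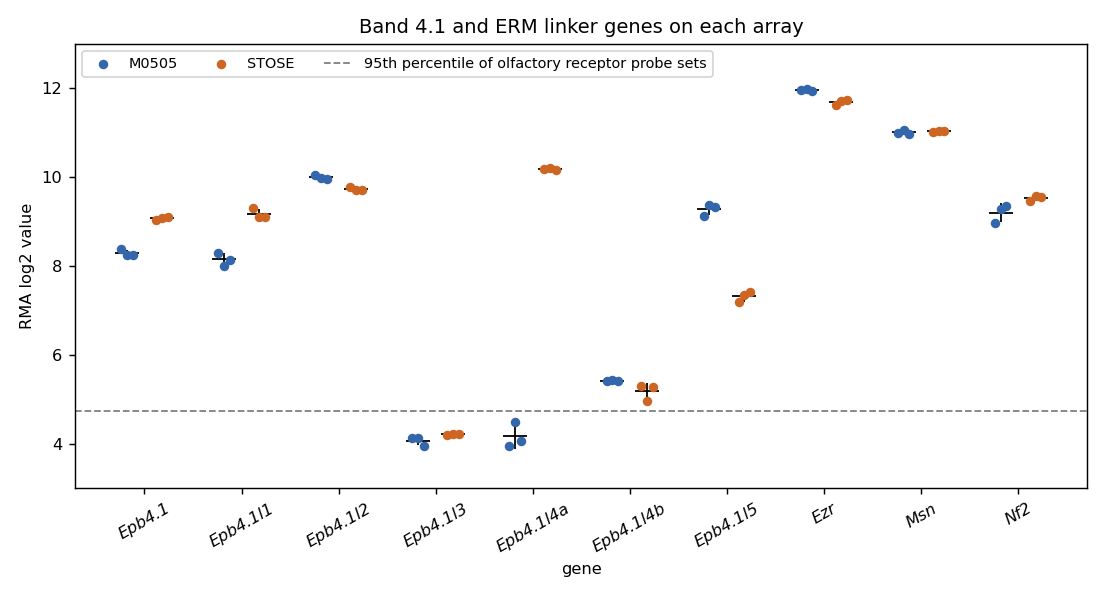
RMA log2 values (vertical axis) of the 10 genes (horizontal axis) on the 3 M0505 arrays (blue) and the 3 STOSE arrays (orange), with the mean and SD of each line in black and the olfactory receptor 95th percentile of 4.74 as a dashed line. *Epb4.1l4a* lies below the dashed line on all 3 M0505 arrays and above 10 on all 3 STOSE arrays, *Epb4.1l3* lies below it on all 6 arrays, and heights are not comparable between genes.

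*Epb4.1l4a* encodes a band 4.1-like protein whose function is little known. Its log2 values were 3.96, 4.49 and 4.06 on the M0505 arrays and 10.19, 10.21 and 10.15 on the STOSE arrays. All 3 M0505 values lay under the olfactory receptor 95th percentile, while the STOSE arrays were within 0.06 of each other. The means were 4.17 ± 0.28 (SD, n = 3) and 10.18 ± 0.03 (SD, n = 3), a 64.7-fold difference that ranks 3 among all rises. Since the M0505 level lay in the background range, the fold depends on that background, and measured from the olfactory receptor 95th percentile the STOSE mean was 43.5-fold higher. Leaving out any single array gave log2 differences from 5.91 to 6.17.

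*Epb4.1l4b*, which encodes the closest relative by name and an activator of the cortical actin and myosin belt (Ehm2 or Lulu2), showed no such rise. Its log2 values were 5.41, 5.44 and 5.41 in M0505 cells and 5.31, 4.95 and 5.27 in STOSE cells. The STOSE arrays lay below the M0505 arrays by as little as 0.10, and replicate 2 was the lowest. The log2 fold change was −0.24 (standard error 0.10, limma adjusted p = 0.0591), and −0.04 with centred arrays. Without STOSE replicate 2 it was −0.13 (adjusted p = 0.143), and without STOSE replicate 1 it was −0.31 (adjusted p = 0.0300).

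The gene with the most similar profile to *Epb4.1l4a* over the 6 arrays was *2010002N04Rik* (named *Smim3* in RefSeq), with a root mean square difference of 0.20 between log2 values taken from each gene's own mean. *Ddr2* (0.30), *2610305D13Rik* (0.31), *Aif1l* (0.44) and *Ereg* (0.45) followed. These 5 genes rose by 5.13 to 6.52 on the log2 scale, and over 3 arrays of each line the measure reads mostly the size of the difference between the lines.

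*Epb4.1l5* was the one gene of the 10 that was called lower in STOSE cells. Its product, Lulu1, binds the Crumbs polarity protein and is needed in the mouse embryo for the epithelial to mesenchymal transition at gastrulation. The log2 values were 9.12, 9.38 and 9.34 in M0505 cells and 7.18, 7.36 and 7.42 in STOSE cells. Thus the lines stood 1.70 apart at their nearest arrays, while arrays of 1 line differed by at most 0.26. The means of 9.28 ± 0.14 and 7.32 ± 0.12 (SD, n = 3) differ 3.89-fold (log2 fold change −1.96 with a standard error of 0.09, limma adjusted p = 6.18e-07). Of all genes, 96.4% had a smaller difference in size. The call held with each array left out, with log2 fold changes from −2.04 to −1.89, and at −1.76 with centred arrays.

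*Epb4.1*, the founder of the family and the gene of red cell protein 4.1R, and *Epb4.1l1*, which encodes the neuronal type 4.1N, were both higher in STOSE cells. For *Epb4.1* the log2 values were 8.38, 8.24 and 8.26 in M0505 cells and 9.03, 9.08 and 9.10 in STOSE cells. No STOSE array came within 0.65 of an M0505 array. The difference was 1.72-fold (log2 fold change 0.78 with a standard error of 0.06, limma adjusted p = 1.21e-05), which is under the 2-fold threshold. *Epb4.1l1* had values of 8.30, 8.01 and 8.14 in M0505 cells and 9.31, 9.11 and 9.10 in STOSE cells. Here too the arrays were separate, by 0.80. At 2.04-fold (log2 fold change 1.03 with a standard error of 0.09, limma adjusted p = 2.57e-05) it was just past the threshold, with a 95% interval of 0.81 to 1.24 on the log2 scale. It fell below 2-fold without M0505 replicate 2 (0.96) and without STOSE replicate 1 (0.95), so the call of *Epb4.1l1* rests on both arrays, whereas its direction did not change.

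Promoter windows of RefSeq, from 250 bases before to 50 after a start site in GRCm38.p6, were at hand for 8 of the 10 genes, 15 windows in all, but not for *Epb4.1l4a* and *Epb4.1l5*. Windows of *Epb4.1* and *Epb4.1l1*, both higher in STOSE cells, are shown, for each gene the window with the most GC boxes, and the arrays do not tell which start site was in use. Capitals mark the GC box GGGCGG on either strand. For *Epb4.1*, the first of 3 windows is chr4:132075264-132075563 (minus strand), with 3 GC boxes and 3 CCAAT motifs. For *Epb4.1l1*, the second of 3 windows is chr2:156420841-156421140 (plus strand), with 3 GC boxes and 0 CCAAT motifs, and it overlaps the first. The other windows of *Epb4.1* held 0 and 2 GC boxes, and those of *Epb4.1l1* held 0.
Epb4.1: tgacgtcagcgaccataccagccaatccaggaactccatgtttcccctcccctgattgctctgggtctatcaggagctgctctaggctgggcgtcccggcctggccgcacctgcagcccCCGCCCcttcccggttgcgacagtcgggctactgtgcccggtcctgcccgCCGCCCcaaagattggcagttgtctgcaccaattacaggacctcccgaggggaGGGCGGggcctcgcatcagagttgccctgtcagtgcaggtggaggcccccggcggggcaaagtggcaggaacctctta
Epb4.1l1: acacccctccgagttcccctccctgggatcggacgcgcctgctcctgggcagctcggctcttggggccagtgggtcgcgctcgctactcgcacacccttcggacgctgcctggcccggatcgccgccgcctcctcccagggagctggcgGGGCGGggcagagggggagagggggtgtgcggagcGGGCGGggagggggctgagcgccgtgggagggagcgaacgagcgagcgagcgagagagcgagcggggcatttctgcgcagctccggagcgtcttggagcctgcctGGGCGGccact
Of the 15 windows, 9 held a GC box, 5 held CCAAT and 0 held TATAAA, each searched on both strands. These motifs were in 35.7%, 37.4% and 13.6% of all 32851 windows in the table. The windows of the 8 genes held 2 to 58 CpG dinucleotides, with 17, 3 and 37 in those of *Epb4.1* and 29, 33 and 15 in those of *Epb4.1l1*, against a median of 7 over all windows. Windows of 1 gene can overlap, and a match describes the letters only.

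The other band 4.1 genes differed little between the lines. *Epb4.1l2*, which encodes the widely expressed 4.1G, had values of 10.05, 9.99 and 9.95 in M0505 cells and 9.77, 9.72 and 9.71 in STOSE cells. The STOSE arrays were lower without overlap, by a log2 fold change of −0.26 (standard error 0.06, limma adjusted p = 0.00456), but with centred arrays this was −0.06 (adjusted p = 0.316). *Epb4.1l3*, which encodes 4.1B, a candidate tumor suppressor also named Dal1, had values of 4.13, 4.13 and 3.95 in M0505 cells and 4.21, 4.22 and 4.22 in STOSE cells. All 6 lay under the olfactory receptor 95th percentile, so no expression of *Epb4.1l3* was detectable above this background. Its log2 fold change of 0.15 had a limma adjusted p = 0.0940 and a 95% interval of −0.01 to 0.30, and was 0.35 with centred arrays (adjusted p = 0.00136).

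**Figure D2:**
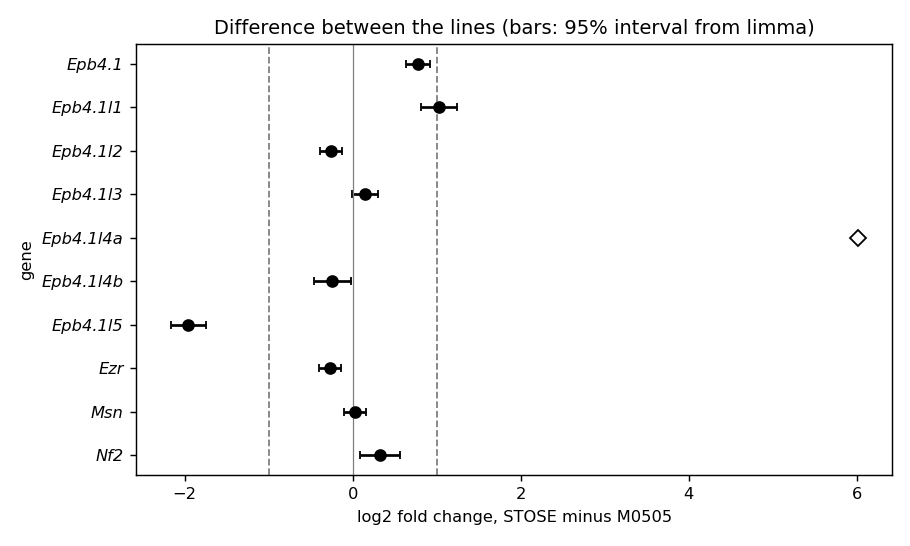
Log2 fold change of STOSE over M0505 cells (horizontal axis) for the 10 genes, with 95% intervals from limma. Dashed lines mark 2-fold in each direction and the open diamond is *Epb4.1l4a*, shown without an interval because it was chosen by this difference. *Epb4.1l5*, at −1.96, lies wholly beyond the 2-fold line, the interval of *Epb4.1l1* spans it, and the other 7 genes lie between the lines.

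Of the ERM linkers and merlin, none was called. *Ezr* had log2 values of 11.96, 12.00 and 11.95 in M0505 cells and 11.64, 11.71 and 11.74 in STOSE cells. Its 1.21-fold difference (log2 fold change −0.27 with a standard error of 0.06, limma adjusted p = 0.00351) was in the same direction on all arrays, but centring the arrays reduced it to −0.07 (adjusted p = 0.274). For *Msn* the values were 10.99, 11.07 and 10.98 in M0505 cells and 11.03, 11.04 and 11.05 in STOSE cells, and this was the one gene of the 10 whose arrays overlapped between the lines. The log2 fold change of *Msn* was 0.03, with a 95% interval of −0.10 to 0.15 (limma adjusted p = 0.718), and 0.23 with centred arrays (adjusted p = 0.00600). The third ERM gene, *Rdx*, is outside the 10 genes and was higher by 0.43 on the log2 scale (9.97 ± 0.04 and 10.39 ± 0.01, SD, n = 3, limma adjusted p = 0.000224), a 1.34-fold difference.

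*Nf2* had values of 8.97, 9.29 and 9.36 in M0505 cells and 9.46, 9.58 and 9.55 in STOSE cells. Replicate 1 of M0505 was the lowest array, and the lines did not overlap but came within 0.11 of each other. The log2 fold change of *Nf2* was 0.32 (standard error 0.10, limma adjusted p = 0.0263), which is 1.25-fold, and 0.52 with centred arrays. It was 0.20 without M0505 replicate 1 (adjusted p = 0.0351), and its adjusted p passed 0.05 without STOSE replicate 2 (0.0751) and without STOSE replicate 3 (0.0674).

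Genes that work with these proteins were taken from 5 lists. Of 39 other FERM-domain genes 4 were called (10.3%, near the 12.5% of all genes), 2 higher and 2 lower, with a median log2 fold change of −0.02, against 0.08 for all genes. *Myo7a*, an unconventional myosin gene, was lower, with a log2 fold change of −2.98 (standard error 0.15, limma adjusted p = 1.09e-06), and *Ptk2b*, the gene of the kinase Pyk2, with one of −2.02 (standard error 0.08, adjusted p = 2.16e-07). *Frmd5* rose by 1.89 (standard error 0.14, adjusted p = 9.49e-06) and *Frmd6*, which encodes the merlin relative willin, by 1.10 (standard error 0.09, adjusted p = 1.40e-05). *Tln2* was not called (0.84) but was past 2-fold with centred arrays (1.04). Of 21 genes of the spectrin skeleton and partners of protein 4.1, the ankyrin gene *Ank1* was called (1 of 21, or 4.76%), with a rise of 1.62 (standard error 0.09, adjusted p = 1.52e-06), and the median was −0.01. By the adjusted p alone 22 of the 39 and 16 of the 21 passed, beside 56.5% of all genes.

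Membrane partners and scaffolds of the ERM proteins were called in 7 of 14 cases (50%, beside 12.5% of all genes), 3 higher and 4 lower, with a median log2 fold change of −0.02. The adhesion molecule gene *Icam1* fell by 3.69 on the log2 scale (12.9-fold, standard error 0.09, limma adjusted p = 2.21e-08), the chloride channel gene *Cftr* had a change of −2.88 (standard error 0.12, adjusted p = 3.15e-07), and *Podxl*, the gene of the sialomucin podocalyxin, one of −2.10 (standard error 0.06, adjusted p = 2.99e-08). All 3 STOSE values of *Cftr* (3.87, 3.90 and 3.68) lay under the olfactory receptor 95th percentile, so the size of its difference depends on that background. *Icam2* was also called lower, at −2.03. *Spn*, which encodes leukosialin, rose by 1.46 (standard error 0.08, adjusted p = 1.62e-06), the hyaluronan receptor gene *Cd44* rose by 1.32 (standard error 0.09, adjusted p = 4.29e-06), and the scaffold gene *Slc9a3r2* by 1.01 (standard error 0.06, adjusted p = 1.87e-06). *Slc9a3r2* was under 2-fold without M0505 replicate 1 (0.994) and without M0505 replicate 3 (0.994). Thus the levels of *Ezr* and *Msn* differed by at most 1.21-fold, while 7 of the 14 partners and scaffolds were called and the other 7 were not. The list was chosen with earlier results of these data known, so its share of calls is a description only. In this list 9 of the 14 passed by the adjusted p alone, beside 56.5% of all genes.

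Among 13 regulators of the ERM proteins 2 were called (15.4%, near the 12.5% of all genes), both lower. *Pip5k1b*, which encodes a kinase that makes the lipid PIP2 to which FERM domains bind, went from 9.84 ± 0.28 to 4.34 ± 0.04 (SD, n = 3), a log2 fold change of −5.50 (standard error 0.13, limma adjusted p = 1.27e-08). In STOSE cells it was thus within the background range given by the olfactory receptors, on which the size of the difference depends. *2610018G03Rik*, matched to the kinase gene *Mst4* by its RefSeq synonym, was lower, at −1.12 (standard error 0.06, adjusted p = 1.30e-06) and at −0.92 with centred arrays, under 2-fold. Of the 23 genes of the Crumbs complex and merlin partners 3 were called (13%), again near the share of all genes. *Wwc1*, the gene of the merlin partner Kibra, rose by 2.32 (standard error 0.07, adjusted p = 6.66e-08), whereas *Pard6g* (−2.40, standard error 0.11, adjusted p = 5.22e-07) and *Inadl*, which encodes the Crumbs complex protein Patj (−1.78, standard error 0.07, adjusted p = 1.77e-07), fell. *Sav1*, a Hippo scaffold gene, was just under 2-fold and not called (0.995), but was past 2-fold with centred arrays (1.20). The medians of these lists were 0.09 and −0.04, and 11 of 13 and 18 of 23 genes passed by the adjusted p alone, beside 56.5% of all genes.

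**Figure D3:**
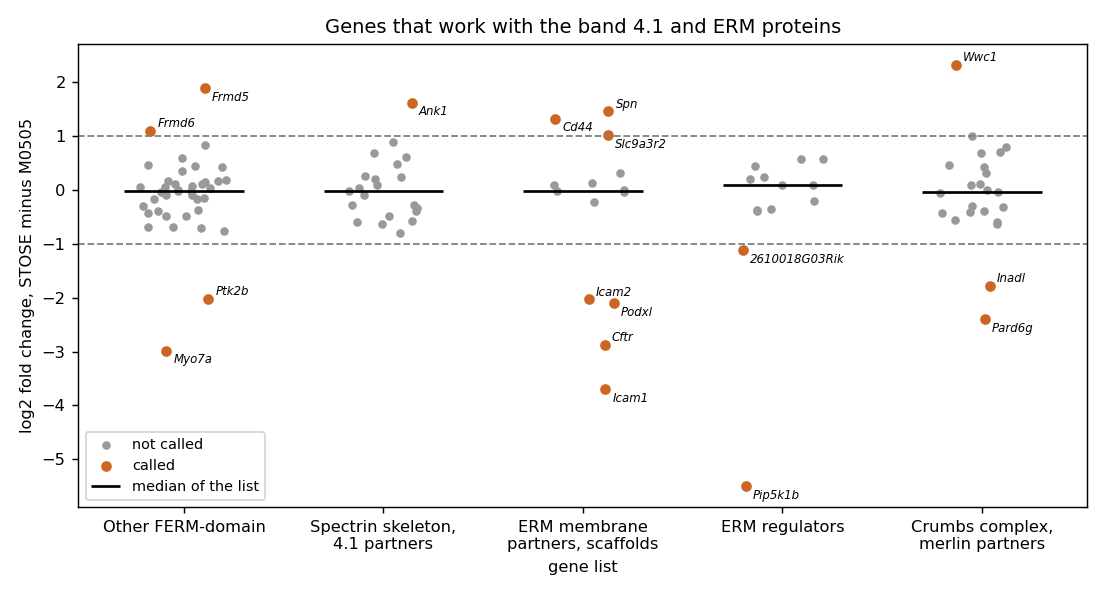
Log2 fold change of STOSE over M0505 cells (vertical axis) of each gene in the 5 lists of partners (horizontal axis). Called genes are orange and named, others grey, the black bar is the median of each list and dashed lines mark 2-fold. The medians lie between −0.04 and 0.09, and *Pip5k1b*, at −5.50, is the lowest point.

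The position of the genes was read from the gene order of GRCm38.p6, in which all 10 were placed, on chromosomes 1, 2, 4, 10, 11, 17, 18 and X. Around *Epb4.1l4a* on chromosome 18, 1 of the 10 nearest measured genes, 5 on each side, was called, and their log2 fold changes ran from −0.70 to 1.65 with a median of 0.25. Over the chromosome the median was 0.07 and 12.9% of genes were called. Around *Epb4.1l5* on chromosome 1, where 15.6% of genes were called, 1 of 10 was called, in the opposite direction to *Epb4.1l5*, and the range was −0.61 to 1.31 with a median of −0.01. The next gene to *Epb4.1l5* in this order is *Ptpn4*, itself a FERM-domain gene, with a log2 fold change of −0.38 (standard error 0.06, limma adjusted p = 0.00114). Around *Epb4.1* on chromosome 4, 3 of 10 were called, all higher, where 15.5% of the chromosome's genes were called, and the median was 0.51 against 0.18 for the chromosome. The neighbors of *Epb4.1l2* on chromosome 10 held the most calls, 4 of 10 (1 higher and 3 lower, beside 15.1% of that chromosome), with a median of −0.35 and a range of −5.10 to 1.27. Around *Ezr* 2 of 10 were called, both lower, and around *Epb4.1l3* 1 of 10, also lower, beside 10.5% of chromosome 17 for both. Around *Msn* 1 of 10 was called, lower, beside 14.9% of chromosome X. None of the 10 neighbors was called around *Epb4.1l1*, *Epb4.1l4b* or *Nf2*, beside 9.85%, 15.5% and 11.3% of their chromosomes.

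**Figure D4:**
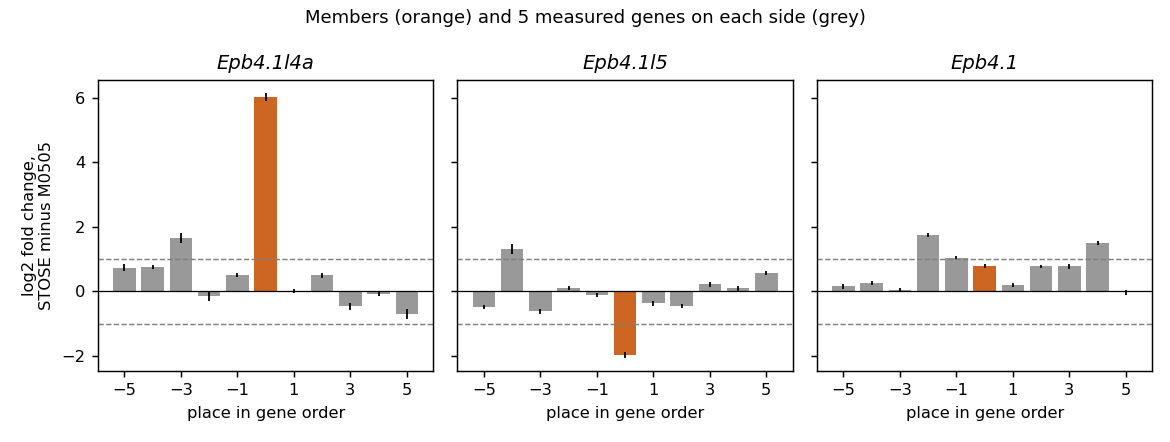
Log2 fold change of STOSE over M0505 cells (vertical axis, bars with standard errors) for 3 of the genes (orange) and the 5 nearest measured genes on each side (grey), by place in gene order. *Epb4.1l4a* was chosen by this difference, so its bar and standard error are a description with no test. Dashed lines mark 2-fold. The rise of *Epb4.1l4a*, 6.02, stands above neighbors of at most 1.65, the fall of *Epb4.1l5*, −1.96, below neighbors of at least −0.61, and *Epb4.1*, at 0.78, lies among neighbors that reach 1.75.

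Markers checked the labelled cell type. All 9 genes of ovarian surface epithelium and mesothelium were above the olfactory receptor 95th percentile on all 6 arrays, yet 3 were called lower in STOSE cells and 8 passed in that direction by the adjusted p alone, with *Krt19* at −5.56 and *Krt8* at −4.55. The log2 of their summed signal was 14.70 to 14.77 in M0505 cells and 13.91 to 14.03 in STOSE cells. Of the erythroid genes, *Klf1* and *Hbb-b1* lay under the percentile on all arrays, and *Alas2* and *Ahsp* were called lower. Under the percentile on all arrays were also 5 of 7 leukocyte markers, including *Ptprc*, 2 of 6 endothelial markers, *Pecam1* and *Emcn*, and 2 of 5 granulosa markers, *Fshr* and *Cyp19a1*. In each of the leukocyte, endothelial and granulosa lists 1 gene was called lower, namely *Cd68*, *Kdr* and *Inha*. The summed log2 signals were lower in STOSE cells for the leukocyte (9.71 to 10.10 against 7.88 to 8.12), endothelial (9.75 to 9.88 against 7.20 to 7.26) and granulosa lists (9.79 to 9.97 against 7.55 to 7.76). In M0505 cells each of these 3 sums rested mostly on 1 bright gene. The M0505 and STOSE means were 9.78 and 6.96 for *Cd68*, 9.58 and 4.41 for *Kdr*, and 9.61 and 5.68 for *Inha*. In STOSE cells *Kdr* had a lower mean than *Tie1* (5.36), and *Inha* a lower one than *Foxl2* (6.39). The median log2 fold changes of the lists were 0.03, 0.04 and −0.13. By the adjusted p alone *Cd3e*, *Cdh5*, *Tie1* and *Amh* were higher in STOSE cells, by 0.20 to 0.27, with overlapping arrays for *Tie1* and *Amh*. In the same way *Pecam1* (−0.36) and *Foxl2* (−0.37) were lower, besides *Cd68*, *Kdr* and *Inha*. For 5 fibroblast and stromal genes the sums were 12.20 to 12.32 and 12.28 to 12.34, with *Thy1* called higher. All 5 passed by the adjusted p alone, 4 higher and 1 lower in STOSE cells. Their differences had a middle value of 0.84 on the log2 scale. The lower gene, *Dcn* (−0.45), had the highest means of the 5, 11.94 in M0505 cells and 11.49 in STOSE cells. These sums therefore rested largely on *Dcn* and do not show the 4 rises. The part of these differences in the results above was not tested, and in RNA from whole cultures fewer cells of a type and less RNA per cell cannot be told apart.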

How the data were processed

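Whole-transcript Affymetrix arrays (Mouse Gene ST) were run on RNA of 3 M0505 and 3 STOSE cultures. The authors normalized the arrays with Affymetrix Expression Console and RMA, which corrects background, quantile normalizes and summarizes probes, and deposited log2 values per probe set. Their 4 columns of line means, ratio and linear fold change were not used. Software versions, annotation release and build are not given in the sources used here. An array has no read depth, so the number of arrays limits the precision, and the smallest two-sided p of an exact permutation of these arrays is 0.1.

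Of 28944 probe sets, 23530 had a symbol. The probe set with the highest mean was kept per gene, with no filter on low values. The lines were compared with limma 3.58.1 (lmFit, eBayes) in R 4.3.3, without covariates, with Benjamini-Hochberg adjustment over 20405 genes. The code was tested on simulated data. Per the labels, samples were grouped by line. The members and lists were chosen with earlier results of these data known. Named partners are *Rdx* and the called genes of a list, up to 3 in each direction by fold change. *Icam2*, the genes named by position, and *Sav1*, *Tln2* and *Tmod3*, called only with changed settings, were added after their values were seen. The 5 lists of partners were other FERM-domain genes, spectrin skeleton and protein 4.1 partners, ERM membrane partners and scaffolds, ERM regulators, and Crumbs complex and merlin partners. Markers of 6 cell types were read singly, and the summed level of the erythroid list is not reported here. Alternatives covered normalization, dim genes, probe sets, moderation, the methods' t-test, fold thresholds, a replicate block and leaving out each array.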

Additional observations from a re-analysis of the deposited data

How the results depend on the processing

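*Epb4.1l5* kept its direction under every alternative run, and none of the 10 genes changed sign. As *Epb4.1l4a* was chosen by its difference, its direction and its place in the counts of the 10 genes are a description only. The fold threshold moved the counts most. With no fold threshold 7 of the 10 genes passed, or 6 of the 9 without *Epb4.1l4a*, and 11520 of all genes did. The numbers passing among the other FERM-domain genes, spectrin skeleton, ERM regulators and Crumbs and merlin partners were 22, 16, 11 and 18. At 4-fold these were 1 of the 10 (*Epb4.1l4a*), 695 of all, 2 FERM-domain, 0 spectrin skeleton and 1 regulator, with 4 ERM membrane partners. Tested against 2-fold with limma's treat, 1499 genes and 1 regulator passed, *Epb4.1l5* among the former but not *Epb4.1l1*. With centred arrays 2 spectrin skeleton genes (*Ank1* and *Tmod3*) and 1 regulator were called. Among the brighter 50% of genes, 4 ERM membrane partners and 1 Crumbs or merlin partner were called, since fewer genes were tested. The counts of calls with each array left out stayed within 1.5 times, 2 to 3 for the 10 genes. Same-numbered arrays of the lines had correlated deviations of 0.256, 0.0421 and 0.249, and 5 of 6 arrays correlated best with their own number, a hint of pairing from the data. As the labels name no shared batch and 1 of the 3 correlations was under 0.1, the numbers were not taken to pair the cultures. With a replicate block 3 of the 10 genes were called, as without it. By the adjusted p alone, the methods' t-test with Benjamini-Hochberg adjustment lost *Nf2* (adjusted p = 0.104), and a further quantile normalization added *Epb4.1l4b* (adjusted p = 0.0481). Centred arrays added *Epb4.1l3* and *Msn* as higher and lost *Epb4.1l2* and *Ezr*, which left 5 higher and 1 lower. Signal over background limits *Epb4.1l3* and the M0505 level of *Epb4.1l4a*.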
